A study of Mus musculus with 80 samples.

Results

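The genes described here are 41 complement and coagulation factors made by the liver, measured in the livers of female mice given PFESA-BP2. They were taken as the rows of the count table whose symbol is in a list of 41 names, 18 of complement and 23 of coagulation. All 41 were found, each once, among the 22103 gene rows, and all 41 passed the filter on low counts that left 15197 genes for testing. The compound, known too as Nafion byproduct 2, belongs to the perfluoroalkyl ether sulfonic acids. Every mouse was a female Balb-C aged 10 to 12 weeks that was dosed by gavage once a day on 7 days. The control group had 4 mice at 0 mg/kg-day, and 4 mice each received PFESA-BP2 at 0.03, 0.3, 3.0 or 6.0 mg/kg-day. The labels disagree on what the controls were given, since their titles name DMSO and the design text names deionized water. The labels name no transgene and no other agent, and each mouse gave 1 library. The study asked how the dose of this compound changed liver transcripts.

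Complement and clotting are cascades of plasma proteins, most of them secreted by hepatocytes as inactive precursors. In complement, recognition proteins and their proteases build enzymes that split C3 and then C5, and the terminal proteins assemble into a pore in the target membrane. In clotting, contact and tissue factor pathways meet at thrombin, which turns fibrinogen into fibrin, while anticoagulant proteins restrain the proteases and plasmin dissolves the clot. Promoters of such liver genes are known for binding HNF4, C/EBP, FOXA and STAT proteins.

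The promoters of 5 genes are printed to show the sequence in front of the genes on which the results turn. C9 and F11 are the complement and the coagulation gene with the largest falls, and C8g is the gene with the largest adjusted p at 6.0 mg/kg-day. Fgb and Fgg, neighbours that moved together, were added after their values were seen. Each sequence is the 250 bases before a RefSeq start site on build GRCm38.p6, read 5′ to 3′ on the gene's own strand. Capitals mark matches to 4 searched motifs, each sought on both strands, namely HNF4 (AAAGTCC), C/EBP (TTGCNNAA), STAT (TTCNNNGAA) and FOXA (TGTTTAC).
C9, chr15:6445096-6445345, plus strand: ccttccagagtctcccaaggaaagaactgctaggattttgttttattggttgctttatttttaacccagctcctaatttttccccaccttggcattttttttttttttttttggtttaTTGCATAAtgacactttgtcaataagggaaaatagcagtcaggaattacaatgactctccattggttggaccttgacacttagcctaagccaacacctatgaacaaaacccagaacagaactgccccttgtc
F11, chr8:45262032-45262281, minus strand: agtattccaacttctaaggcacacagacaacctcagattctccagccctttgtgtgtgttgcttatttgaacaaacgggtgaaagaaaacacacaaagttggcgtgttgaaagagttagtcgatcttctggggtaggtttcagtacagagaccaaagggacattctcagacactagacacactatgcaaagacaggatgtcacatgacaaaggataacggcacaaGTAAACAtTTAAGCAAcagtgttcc
C8g, chr2:25501720-25501969, minus strand: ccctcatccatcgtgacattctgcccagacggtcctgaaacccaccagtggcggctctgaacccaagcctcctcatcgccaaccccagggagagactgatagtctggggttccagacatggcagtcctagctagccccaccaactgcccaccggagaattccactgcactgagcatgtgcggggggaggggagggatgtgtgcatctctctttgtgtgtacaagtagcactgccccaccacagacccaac
Fgb, chr3:83049864-83050113, minus strand: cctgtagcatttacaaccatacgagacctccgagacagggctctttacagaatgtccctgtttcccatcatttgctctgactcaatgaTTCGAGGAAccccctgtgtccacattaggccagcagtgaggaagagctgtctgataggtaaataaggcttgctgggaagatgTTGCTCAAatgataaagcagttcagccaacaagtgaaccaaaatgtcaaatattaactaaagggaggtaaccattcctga
Fgg, chr3:83007474-83007723, plus strand: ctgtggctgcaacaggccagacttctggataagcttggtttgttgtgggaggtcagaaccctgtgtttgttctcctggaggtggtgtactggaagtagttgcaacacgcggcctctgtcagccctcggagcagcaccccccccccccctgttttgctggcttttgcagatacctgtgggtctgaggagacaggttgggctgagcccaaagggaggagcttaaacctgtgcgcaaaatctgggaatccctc
The C9 promoter holds 1 match, to C/EBP, that begins 132 bases before the start site. In F11 a FOXA and a C/EBP match begin 25 and 17 bases before it, 1 base apart. Fgb holds matches to STAT and C/EBP at 162 and 80 bases before its start, and Fgg and C8g hold none of the 4. The promoter of Fga, the chain gene between Fgg and Fgb, is not printed. It also holds a STAT and a C/EBP match, at 234 and 135 bases before its start.

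Total counts per library ranged from 13086755 to 21466978. Levels are in CPM on library totals scaled with TMM factors, and each change is a log2 fold change, with its standard error (SE) where one is given. The verbs fell and rose are used where edgeR's quasi-likelihood test gave an adjusted p under 0.05. Libraries 3, 11, 15, 19 and 23, 1 from each group, stood apart from their group-mates on the first component of the within-group variation (42.7% of it). Results that depend on them are given also from a fit adjusted for these 5 libraries and from a fit that left them out. Both fits were added after the data were seen. The 5 libraries were picked by the same spread within groups that the tests use, so p-values of both fits can be too small. Calls made only in these fits are given as descriptions. The summed level of 9 hepatocyte markers, which include albumin, was 134800 to 180500 CPM in controls and 87230 to 120100 CPM at 6.0 mg/kg-day, without overlap. Albumin made up most of that sum, at 101600 to 145300 CPM in controls and 61700 to 88900 CPM at 6.0 mg/kg-day. Of the 9 markers 2 fell (Alb and Ahsg), 7 did not pass, 3 had changes above 0 and the median change was -0.09. In bulk liver, fewer hepatocytes and less RNA per hepatocyte cannot be told apart. Summed Kupffer cell markers were at 276 to 335.5 CPM in controls and 216 to 480.4 CPM at 6.0 mg/kg-day (1 of 7 fell), and those of sinusoidal endothelium at 219 to 254 CPM and 177 to 234 CPM (2 of 7 rose and 2 fell). Stellate cell markers were at 290.5 to 327 CPM and 175 to 344 CPM (1 of 6 fell), and erythroid markers at 528 to 965 CPM and 263 to 579 CPM (1 of 5 rose and 1 fell). Markers of platelets were at 1.78 to 2.68 CPM and 1.43 to 4.33 CPM (1 of 3 tested fell), and those of neutrophils and monocytes at 5.06 to 6.86 CPM and 9.09 to 28.1 CPM (1 of 5 rose). T and B cell markers were at 3.50 to 6.86 CPM and 3.47 to 114 CPM (2 of 5 tested rose), with the highest sum in library 22. The same mouse also had the highest sums at 6.0 mg/kg-day for Kupffer cells, for platelets and for neutrophils and monocytes. Over all genes tested, 11.2% were lower and 11.2% higher at 6.0 mg/kg-day. The part of these markers in the changes below was not tested.

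Both cascades were lower at the top dose. At 6.0 mg/kg-day 21 of the 41 genes fell, 8 of 18 in complement and 13 of 23 in coagulation, against 11.2% of all genes tested that were lower. The mean level of all 41 was at least 10 CPM, and among the 7562 tested genes at that level 15.1% were lower. The single rise was Pros1, where 11.2% of all genes were higher. The median change was -0.49 in complement and -0.56 in coagulation, against -0.02 over all genes, and 35 of 41 changes were below 0. For 18 of the 41 genes, 7 of complement and 11 of coagulation, all 4 treated mice were below all 4 controls, against 8.86% of all genes, and for Pros1 all 4 were above, against 9.68%. In the fit adjusted for the 5 libraries 29 genes fell, against 18.7% of all genes, and Pros1 rose. With those libraries left out 27 fell, against 16.7% of all genes, and Pros1 rose. All 22 calls of the fit of all libraries were among both. A fit of these 8 libraries alone gave 13 falls and no rise, and in it the share of all genes called lower was 5.09%.

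**Figure D1:**
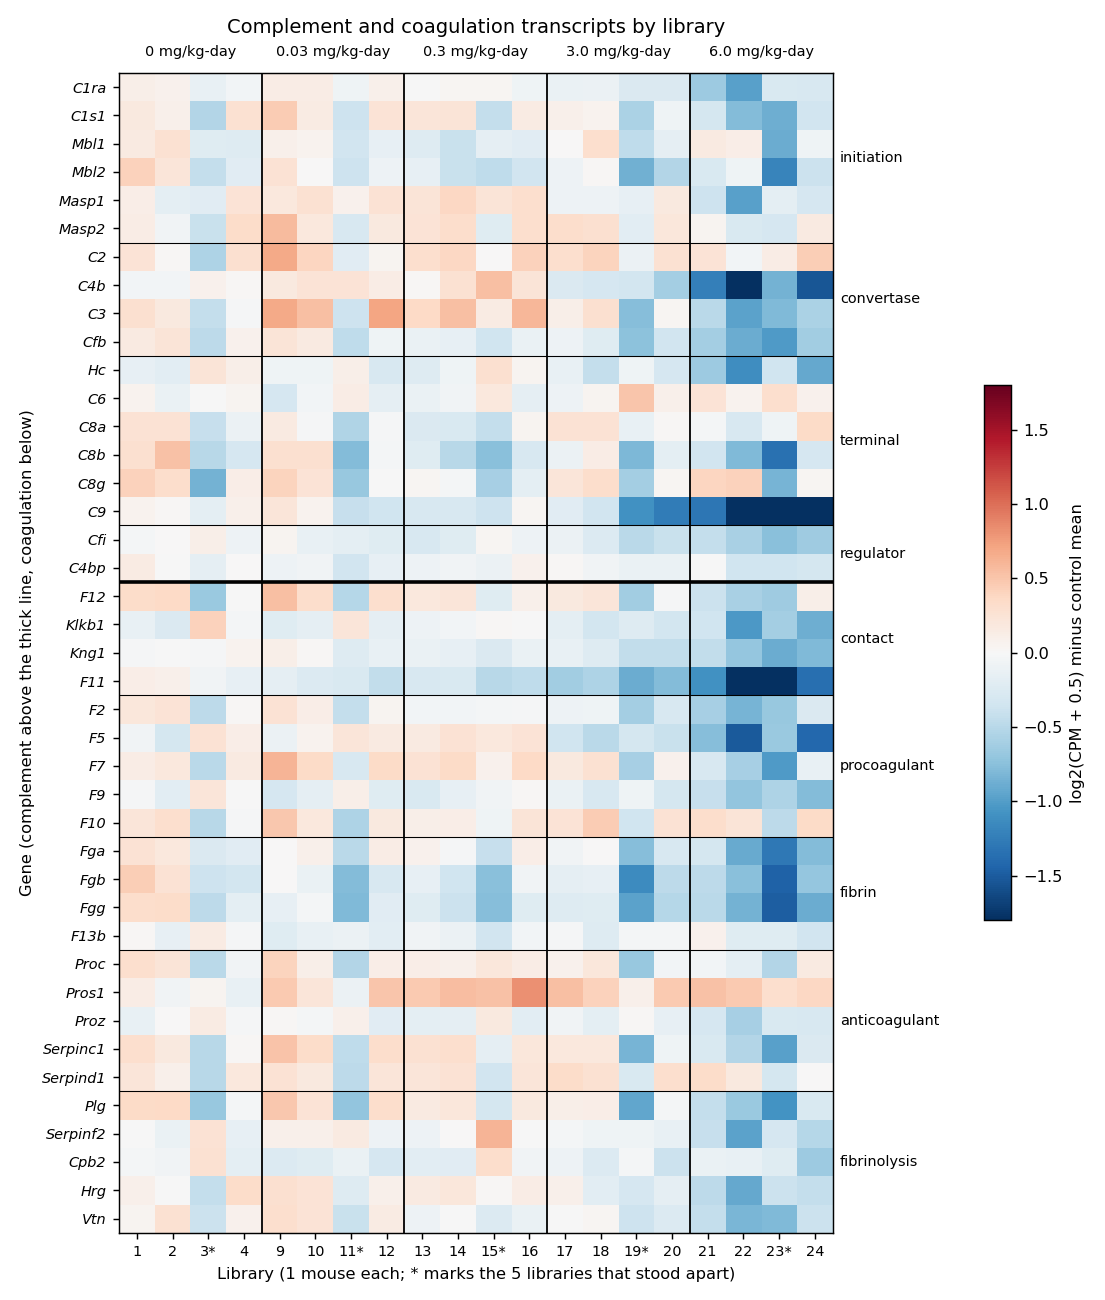
Level of each of the 41 genes (rows) in each of the 20 libraries (columns), as log2(CPM + 0.5) minus the control mean, with blue below and red above the control mean and the deepest colours holding all values past the ends of the scale. Most rows turn blue in the 4 libraries at 6.0 mg/kg-day, with C9, F11 and C4b the deepest, while Pros1 is red there and at 0.3 mg/kg-day.

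**Figure D2:**
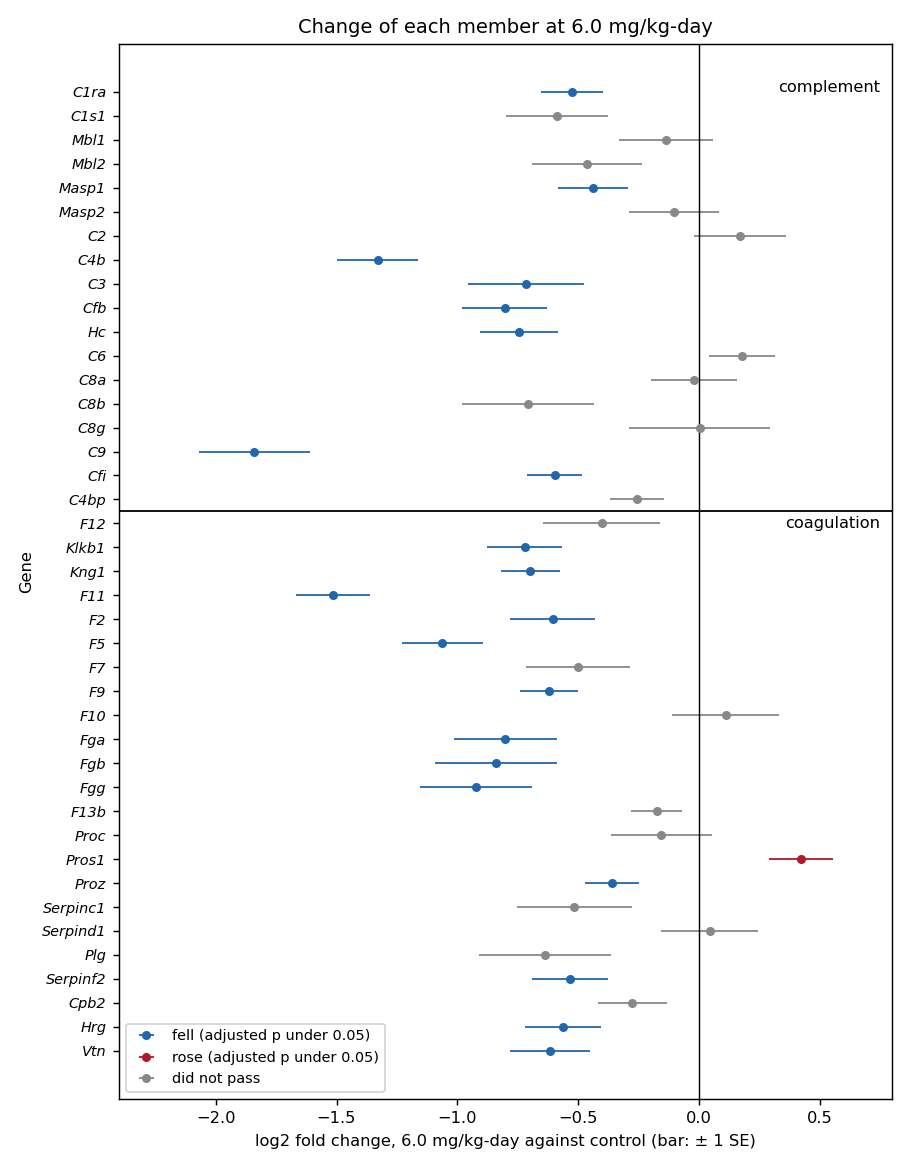
log2 fold change at 6.0 mg/kg-day against control for each gene, with a bar of 1 SE to either side. Blue points fell, the red point rose (adjusted p under 0.05) and grey points did not pass, and C9 at -1.84, F11 at -1.51 and C4b at -1.33 lie farthest below 0.

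Few of these genes passed at the lower doses. At 0.03 mg/kg-day none of the 41 passed by edgeR or DESeq2, and 1 (Pros1) had an unadjusted p under 0.05 in edgeR's quasi-likelihood test, where 0% of all genes were called (565 had an unadjusted p under 0.05, and DESeq2 called 11). At 0.3 mg/kg-day none passed by edgeR, 2 (F11 and Pros1) had an unadjusted p under 0.05, and 0.29% of all genes were called, while DESeq2 called Pros1. At 3.0 mg/kg-day only F11 passed and fell, against 1.43% of all genes lower, and the median change was -0.10 in complement and -0.16 in coagulation. In the fit adjusted for the 5 libraries 7 genes passed at this dose, against 9.17% of all genes, as Cfb, C9, Kng1, F11, Fgb and Fgg fell and Pros1 rose. With those libraries left out F11 fell and Pros1 rose, where 5.64% of all genes passed. In the fit without library 17 of this dose, C9 fell as well as F11. Over the dose groups taken in order, 20 genes had a falling slope, 7 of complement and 13 of coagulation, against 12.7% of all genes. From the 3.0 to the 6.0 mg/kg-day group C4b, C9, F11 and F5 fell, against 1.06% of all genes. The adjusted fit raised this count to 18, against 4.61% of all genes, and leaving the 5 libraries out gave 18 as well, against 5.2%. With only these groups in the fit edgeR called 0% of all genes lower, and 16 of the 41 and 1575 of all genes had an unadjusted p under 0.05.

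The mean over the genes of a branch in each mouse shows how far the mice of a group spread. Complement was at 0.16, 0.09, -0.28 and 0.03 in the control mice, as a mean of log2(CPM + 0.5) relative to the control mean, and at -0.31, -0.64, -0.64 and -0.41 at 6.0 mg/kg-day. Coagulation was at 0.13, 0.09, -0.20 and -0.02 in the same controls and at -0.30, -0.63, -0.71 and -0.44 at 6.0 mg/kg-day. In both branches the highest mouse at 6.0 mg/kg-day was just below the lowest control, which was library 3. The group means at 6.0 mg/kg-day were -0.50 ± 0.169 for complement and -0.52 ± 0.188 for coagulation (SD, n = 4). Both branches come from the same mice, and within each mouse their values lay close together, without a common direction of the difference. Together the 41 genes held 3.96% ± 0.439 of all counts in controls and 2.49% ± 0.274 at 6.0 mg/kg-day (SD, n = 4). In between they held 4.26%, 4.13% and 3.44% in order of dose.

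**Figure D3:**
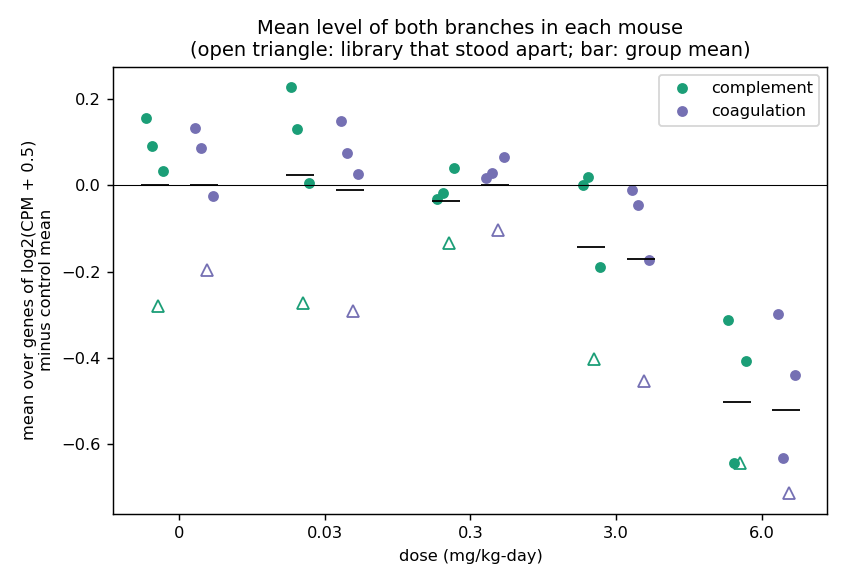
Mean of log2(CPM + 0.5) relative to control over the 18 complement genes (green) and the 23 coagulation genes (purple), 1 point per mouse, by dose. Group means at 6.0 mg/kg-day are -0.50 and -0.52, and in each group the open triangle, the library that stood apart, is the lowest or level with the lowest.

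The recognition step of complement uses C1 and the mannose-binding lectins, each with its own proteases. C1ra, a protease of C1, was at 220.0, 216, 187 and 199 CPM in the control mice and at 131, 104, 169 and 168 CPM at 6.0 mg/kg-day. The groups did not overlap, and C1ra fell by 0.53 ± 0.127 (SE, adjusted p = 0.00493). Masp1, a lectin pathway protease, was at 89.95, 72.99, 71.6 and 97.9 CPM in controls and at 63.8, 41.7, 73.2 and 66.5 CPM at 6.0 mg/kg-day, so that 1 treated mouse lay inside the control range. It fell by 0.44 (adjusted p = 0.0331), a call lost without library 1, 4, 21 or 22 in turn (adjusted p up to 0.121). Masp2, the lectin protease that cuts C4 and C2, was at 128, 111, 88.0 and 146 CPM in controls and at 120.0, 95.9, 94.2 and 130.1 CPM at 6.0 mg/kg-day, within the same range (adjusted p = 0.730). Of the exon length of Masp2, 54.9% lies opposite exons of Tardbp, and no source used here says whether the counting used strand. Of the other genes of this step, C1s1 changed by -0.59 (adjusted p = 0.0508) and the lectins Mbl1 and Mbl2 by -0.14 and -0.46, and none of these passed. C1s1 fell in the adjusted fit (adjusted p = 0.000181), with the 5 libraries left out (0.000867) and without library 3, 21 or 24 in turn. Mbl2 fell in the adjusted fit (0.0143) but did not pass with the 5 libraries left out (0.0776). C1ra and C1s1 have close copies in the genome, so how reads were divided is uncertain.

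The convertases that split C3 and C5 are built from C4 with C2 and from C3 with factor B. C4b, the mouse C4 gene, was at 1023, 1032, 1122 and 1080 CPM in controls, at 887, 860, 842 and 696 CPM at 3.0 mg/kg-day and at 455, 286, 587 and 365 CPM at 6.0 mg/kg-day. At 3.0 mg/kg-day every mouse was below every control, as for 752 of the 15197 genes tested, and C4b did not pass there (adjusted p = 0.288). At 6.0 mg/kg-day it fell by 1.33 ± 0.168 (adjusted p = 7.94e-06). At 0.03 mg/kg-day all 4 mice were above all controls, from 1170 to 1260 CPM, as for 285 of the 15197 genes, without passing. Its paralog C4a, from the list of other complement genes, fell too, by 1.26 (adjusted p = 0.00190), and reads of the pair cannot be fully told apart by sequence. Cfb, the factor B gene, was at 935, 981, 598 and 875 CPM in controls and at 542, 449, 409.6 and 541 CPM at 6.0 mg/kg-day. The highest treated mouse was below the lowest control, and Cfb fell by 0.80 ± 0.176 (adjusted p = 0.00232). C2, which lies next to Cfb, was at 97.5, 83.3, 55.2 and 99.6 CPM in controls and at 97.3, 79.3, 89.8 and 111 CPM at 6.0 mg/kg-day. The groups overlapped, with 1 treated mouse above all controls and 1 control below all treated mice (change 0.17, adjusted p = 0.571). C3, the protein on which all pathways meet, fell by 0.72 (adjusted p = 0.0369), from 8804 ± 1798 to 5363 ± 794 CPM (SD, n = 4). That call was lost without library 1, 2, 4, 22, 23 or 24 in turn, with adjusted p up to 0.120.

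The terminal proteins C5 to C9 build the membrane attack complex, a ring of many C9 molecules on a C5b to C8 base. C9 was at 169, 163, 143 and 171 CPM in controls and at 140.4, 126, 75.6 and 66.9 CPM at 3.0 mg/kg-day. At 6.0 mg/kg-day it was at 65.0, 35.9, 41.9 and 37.8 CPM, below every mouse of the other 4 groups. Its change of -1.84 ± 0.229 (adjusted p = 6.71e-06), to 27.9% of the control level, was the largest fall among the 41 genes. At 3.0 mg/kg-day C9 changed by -0.66 (adjusted p = 0.115). Hc, the C5 gene, was at 668.5, 652, 872 and 796 CPM in controls and at 472, 340.3, 581 and 391 CPM at 6.0 mg/kg-day, without overlap, and fell by 0.74 ± 0.160 (adjusted p = 0.00197). C8g, which encodes the small chain of C8, was at 300.1, 281, 125 and 244 CPM in controls and at 295, 301, 126 and 230.4 CPM at 6.0 mg/kg-day, for a change of 0.00 ± 0.291 (adjusted p = 0.996). Its low mice are libraries 3 and 23, both of which stood apart, and the other mice of both groups covered nearly the same range. Within C8 the 3 chains had unlike values, at -0.02 for C8a, -0.71 for C8b (adjusted p = 0.0695) and 0.00 for C8g. C8b fell in the fit adjusted for the 5 libraries (adjusted p = 0.000854) and in that without them (0.00876), as it did without library 3 alone (0.0373), and C8a and C8g did not pass in either fit. C6 had the lowest level, 11.0 ± 0.672 CPM in controls (SD, n = 4), and changed by 0.18 (adjusted p = 0.380).

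Complement in plasma is held back by regulators. Cfi, the protease that inactivates C3b and C4b, was at 762, 787, 844 and 736 CPM in controls and at 583, 519.5, 464 and 503.5 CPM at 6.0 mg/kg-day. The groups were far apart, and Cfi fell by 0.60 ± 0.114 (adjusted p = 0.000668). C4bp, a cofactor of that protease, was at 1041, 942, 846 and 951 CPM in controls and at 940.0, 734, 734 and 753 CPM at 6.0 mg/kg-day. There 3 mice were below all controls, library 21 lay within the control range, and C4bp did not pass (-0.26, adjusted p = 0.102). It fell in the adjusted fit (0.0298) and without library 21 (0.0352), and did not pass with the 5 libraries left out (0.0879). Of 26 other complement genes tested, 5 fell and none rose, against 11.2% of all genes lower and 11.2% higher, with a median of -0.14. Serping1, the C1 inhibitor gene, fell by 0.58 (adjusted p = 0.00654), and Cfhr2 fell by 0.51 (adjusted p = 0.00681). C4a and the C5a receptor gene C5ar1 also fell, and C5ar1 is named outside the rule for named genes.

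**Figure D4:**
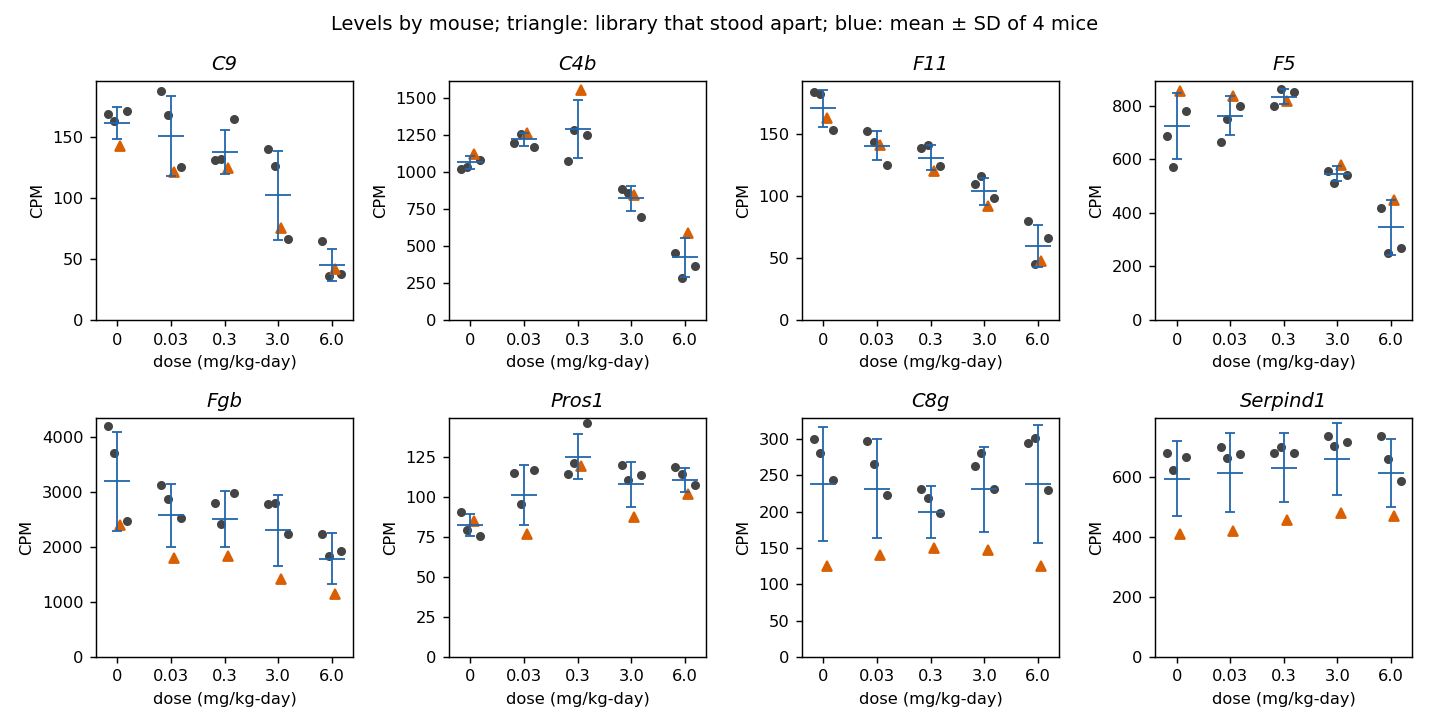
CPM of 8 genes in each mouse by dose, with the group mean and SD in blue and the library that stood apart as a triangle. C9, C4b, F11 and F5 lie lowest at 6.0 mg/kg-day, Fgb is lower there with wide spread, Pros1 lies above the controls at 6.0 mg/kg-day, and C8g and Serpind1 overlap the controls with the triangle lowest in every group.

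The contact pathway starts on surfaces with factor XII, prekallikrein, kininogen and factor XI. F11, the factor XI gene, was at 184, 182, 163 and 153 CPM in controls, at 152, 144, 141 and 125 CPM at 0.03 mg/kg-day and at 138, 141, 120.3 and 124 CPM at 0.3 mg/kg-day. At 3.0 mg/kg-day it was at 109.5, 116, 91.4 and 98.3 CPM, and at 6.0 mg/kg-day at 79.95, 45.1, 47.4 and 66.3 CPM. The mice of all 4 treated groups were below every control, and those at the upper 2 doses also below every mouse at lower doses. Of the 15197 genes tested, 219 were below every control at 0.03 mg/kg-day, 452 at 0.3, 752 at 3.0 and 1347 at 6.0 mg/kg-day. At 0.03 mg/kg-day the gap was small, with the highest mouse at 152.3 CPM and the lowest control at 153.1 CPM. F11 did not pass at 0.03 (-0.28) or 0.3 mg/kg-day (-0.38, adjusted p = 0.422), fell by 0.72 ± 0.149 at 3.0 mg/kg-day (adjusted p = 0.00527) and by 1.51 ± 0.152 at 6.0 mg/kg-day (adjusted p = 4.70e-07). It also fell between those doses (-0.80, adjusted p = 0.00706), and its slope of -0.34 per dose step had an adjusted p of 2.63e-06. Kng1, the kininogen gene, was at 2226, 2248, 2236 and 2367 CPM in controls and at 1671, 1394, 1218 and 1314 CPM at 6.0 mg/kg-day. The spread among controls was narrow and the groups did not overlap, with a fall of 0.70 ± 0.121 (adjusted p = 0.000258). Kng1 has a close copy, Kng2, which makes its share of reads uncertain. F12 was at 240.0, 245, 120 and 189.5 CPM in controls and at 146, 127, 123 and 205.5 CPM at 6.0 mg/kg-day, inside the control range in every mouse (-0.40, adjusted p = 0.254). With adjustment for the 5 libraries it fell (adjusted p = 0.0432), as it did when they were left out (0.0201). Klkb1, prekallikrein, fell by 0.72 (adjusted p = 0.00191), and 43.2% of its exon length is shared on the same strand with a predicted gene, Gm45753.

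Factors II, V, VII, IX and X carry the signal from both starts to thrombin. F5, the cofactor that speeds the making of thrombin, was at 687, 572, 854.5 and 779 CPM in controls, at 556, 510.4, 577 and 540.2 CPM at 3.0 mg/kg-day and at 420, 249.5, 448 and 268 CPM at 6.0 mg/kg-day. At 6.0 mg/kg-day it was below every mouse of the other groups and had fallen by 1.06 ± 0.166 (adjusted p = 8.95e-05), while at 3.0 mg/kg-day library 19 still lay within the control range (adjusted p = 0.226). F9 was at 142, 127, 169 and 143.5 CPM in controls and at 108, 88.2, 97.9 and 83.8 CPM at 6.0 mg/kg-day. Its groups did not overlap, and it fell by 0.62 ± 0.119 (adjusted p = 0.000673). F2, prothrombin, fell by 0.61 (adjusted p = 0.0163), a call lost without library 2 or 22 (adjusted p up to 0.0660). F10, the factor X gene, was at 376, 402, 229.9 and 320.1 CPM in controls and at 405, 381.5, 234 and 413 CPM at 6.0 mg/kg-day, with 2 treated mice above all controls and library 23 low. It did not pass (0.11, adjusted p = 0.765). F7 changed by -0.50 (adjusted p = 0.104), and it fell in the adjusted fit (0.00100), with the 5 libraries left out (0.00413) and without library 3 alone (0.0446).

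Fibrinogen is built from the chains of Fga, Fgb and Fgg, which lie side by side on chromosome 3 (83007724 to 83049863, GENCODE M21 on GRCm38). Fgg was at 3913, 3918, 2266 and 2759 CPM in controls and at 2241, 1739, 1115 and 1688 CPM at 6.0 mg/kg-day. Its highest treated mouse lay just below the lowest control, and Fgg fell by 0.92 ± 0.233 (adjusted p = 0.00697). Fga was at 4871, 4644, 3399 and 3536 CPM in controls and at 3248, 2168, 1657 and 2369 CPM at 6.0 mg/kg-day, again without overlap, and fell by 0.80 ± 0.213 (adjusted p = 0.00989). Fgb was at 4206, 3708, 2408 and 2478 CPM in controls and at 2240, 1847, 1137 and 1924 CPM at 6.0 mg/kg-day and fell by 0.84 ± 0.254 (adjusted p = 0.0213). The call of Fgb was lost without library 1, 2 or 23 (adjusted p up to 0.0749). The 3 chains together took 1.03% ± 0.197 of all counts in controls and 0.570% ± 0.127 at 6.0 mg/kg-day (SD, n = 4). F13b, the carrier chain of factor XIII, which crosslinks fibrin, was at 313, 278, 339 and 301 CPM in controls and at 323, 263, 263 and 241 CPM at 6.0 mg/kg-day. There 3 mice were below all controls and library 21 was not, and F13b did not pass (-0.18, adjusted p = 0.256).

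Anticoagulant proteins had no common direction. Pros1, protein S, the cofactor of activated protein C, was at 91.1, 79.3, 85.3 and 75.6 CPM in controls, at 115, 121, 119 and 146 CPM at 0.3 mg/kg-day and at 119, 114.5, 102 and 107.5 CPM at 6.0 mg/kg-day. Every mouse at both doses was above every control, as for 564 of the 15197 genes tested at 0.3 mg/kg-day and 1471 at 6.0 mg/kg-day. At 6.0 mg/kg-day Pros1 rose by 0.42 ± 0.133 (adjusted p = 0.0274), a call lost without library 2, 4, 21 or 22 (adjusted p up to 0.0847). At 0.3 mg/kg-day its change was 0.60 ± 0.133, with an adjusted p of 0.0565 by edgeR, and it passed by DESeq2, in the fit adjusted for the 5 libraries and in that without them. Its slope over the doses did not pass (adjusted p = 0.0675). Proz, protein Z, was at 231, 257, 282 and 249.5 CPM in controls and at 207, 169, 209.8 and 209 CPM at 6.0 mg/kg-day, without overlap. It fell by 0.36 ± 0.111 (adjusted p = 0.0240), a call lost without library 3 or 22 (adjusted p up to 0.0938). Serpind1, heparin cofactor II, a thrombin inhibitor, was at 680.5, 623, 411 and 667 CPM in controls and at 737, 661, 469.7 and 588 CPM at 6.0 mg/kg-day. The groups overlapped widely, with their lowest values in libraries 3 and 23 (0.04, adjusted p = 0.900). Antithrombin (Serpinc1) changed by -0.52 (adjusted p = 0.128) and protein C (Proc) by -0.16 (adjusted p = 0.635). Serpinc1 fell in the adjusted fit (0.000739) and with the 5 libraries left out (0.00314), and 34.4% of its exon length lies opposite Zbtb37.

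Several of these proteins need vitamin K to add carboxyl groups to their calcium-binding domains. Of 6 genes of the vitamin K cycle, 1 fell and 1 rose at 6.0 mg/kg-day, where 11.2% of all genes were lower and 11.2% higher. Cyp4f14, of a family that breaks down vitamin K, fell by 1.63 (adjusted p = 1.29e-05), from 633 ± 12.7 to 205 ± 81.5 CPM (SD, n = 4), and Nqo1, a quinone reductase, rose by 1.41 (adjusted p = 0.000556). The carboxylase gene Ggcx (0.16, adjusted p = 0.403) and Vkorc1l1, a vitamin K reductase gene (0.27, adjusted p = 0.141), did not pass. Of the vitamin K dependent proteins among the 41 genes, F2, F9 and Proz fell, Pros1 rose, and F7, F10 and Proc did not pass.

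Clot removal turns on plasminogen, its inhibitors and adhesion proteins of plasma. Vtn, vitronectin, was at 1223, 1424, 902 and 1243 CPM in controls and at 876, 671, 681 and 902 CPM at 6.0 mg/kg-day. The highest treated mouse was just below the lowest control, 901.6 against 902.1 CPM, and Vtn fell by 0.62 ± 0.165 (adjusted p = 0.0106). Hrg, a histidine-rich glycoprotein that binds plasminogen, was at 715, 670.3, 499.9 and 845 CPM in controls and at 484, 354, 512 and 498 CPM at 6.0 mg/kg-day, where library 23 lay above the lowest control and the other treated mice below all controls. It fell by 0.56 (adjusted p = 0.0133), a call lost without library 4 or 22 (adjusted p up to 0.0624). Serpinf2, the main plasmin inhibitor, fell by 0.53 (adjusted p = 0.0185), lost without library 3 or 22 (adjusted p up to 0.0785). Cpb2, a carboxypeptidase that slows fibrin breakdown, was at 436, 432, 542 and 399 CPM in controls and at 413, 411, 385 and 285 CPM at 6.0 mg/kg-day, with 2 mice below all controls (-0.28, adjusted p = 0.175). Plasminogen (Plg) changed by -0.64 (adjusted p = 0.102), and it fell in the adjusted fit (0.000437), with the 5 libraries left out (0.000709) and without library 3 alone (0.0372). Of 20 other coagulation and fibrinolysis genes tested, 6 fell and 3 rose, against 11.2% of all genes lower and 11.2% higher. Their median was -0.26. Pzp, a broad protease inhibitor, fell by 0.96 (adjusted p = 1.14e-05), from 6099 ± 267 to 3135 ± 588 CPM (SD, n = 4). Fgl1, a fibrinogen-like protein, fell by 1.42 (adjusted p = 0.00147). Serpina5, the protein C inhibitor gene, fell by 2.79 (adjusted p = 0.00107) from only 3.47 ± 1.60 CPM, and F2r, the thrombin receptor gene, rose by 0.74 (adjusted p = 0.000494).

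Many of the 41 genes lie within 200 kb of one another, though not always side by side. The ratio of such neighbours within a library does not depend on how libraries were scaled. Of 13 pairs closer than 200 kb, 4 had ratios that did not overlap between the control mice and those at 6.0 mg/kg-day. The share among other pairs of neighbouring genes was not computed at any dose, so whether 4 of 13 is many cannot be said. Of the 4, Cfb to C2 and C4b to C2 share a gene. The log2 ratio of Cfb to C2, which lie 85 bases apart on chromosome 17, was 3.35 ± 0.187 in controls and 2.36 ± 0.151 at 6.0 mg/kg-day (SD, n = 4). C8b to C8a went from -1.60 ± 0.204 to -2.30 ± 0.414, F7 to F10 from -1.77 ± 0.132 to -2.39 ± 0.150, and C4b to C2 from 3.70 ± 0.441 to 2.13 ± 0.444. In each of these 4 the two-sided exact permutation p was 0.02857, the smallest that 4 against 4 can give, and 0.09285 after adjustment over 13 pairs, so none passed 0.05. F11 to Klkb1 differed by -0.83 (exact permutation p = 0.05714, adjusted 0.149). The ratios among the fibrinogen chains differed by 0.02 for Fga to Fgb, -0.09 for Fgg to Fgb and -0.10 for Fgg to Fga, all within the spread between mice. At 0.3 mg/kg-day, where no test was run, Fga to Fgb was at 0.57 to 0.74, above every control (0.21 to 0.51), and Fgg to Fga was at -0.75 to -0.68, below every control (-0.58 to -0.25). A predicted gene, Gm20547, shares 42.8% of the exon length of C2 and 79.5% of that of Cfb on the same strand, so reads of this pair may have been divided with it.

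**Figure D5:**
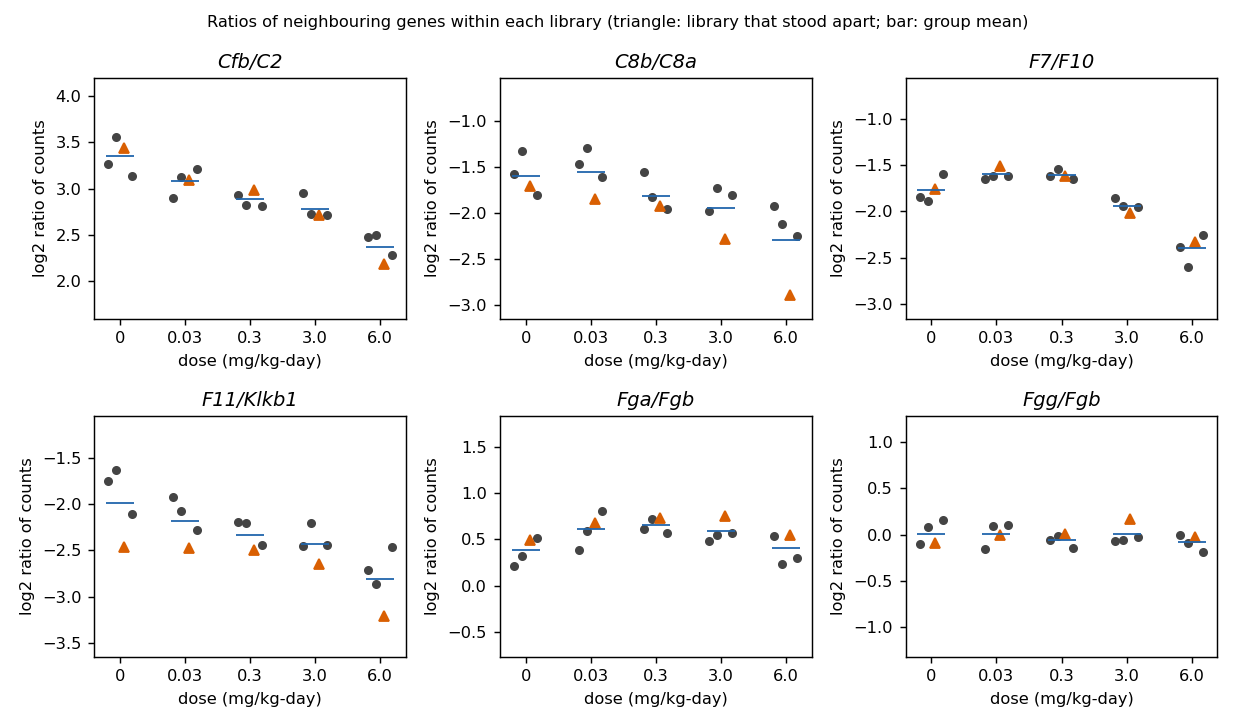
log2 ratio of counts of 6 pairs of neighbouring genes in each library by dose, with bars at group means and triangles for the library that stood apart; all panels span the same height in log2 units. Cfb to C2, C8b to C8a and F7 to F10 at 6.0 mg/kg-day lie below all controls, while the fibrinogen pairs overlap the controls at that dose; at 0.3 mg/kg-day Fga to Fgb lies above all controls.

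Levels between genes were compared per kb of exon length. C3 was highest in controls at 1712 ± 350 CPM per kb, followed by Fgg at 1536 ± 399, Fga at 1366 ± 250 and Fgb at 840 ± 236 (SD, n = 4). All 4 genes were measured in the same control mice, so these spreads between mice do not measure the differences between genes. C6, at 3.09 ± 0.188 CPM per kb, and Masp1, at 8.45 ± 1.31, were lowest. Exon length here is the union over all annotated transcripts, so genes with long alternative exons, as Fgb and Masp1 have in GENCODE M21, read low on this scale.

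The 5 libraries that stood apart carried lower levels of many of these genes in every dose group, controls included. As a mean over the 5 groups, their log2 level minus that of their group's other mice was -0.89 for C8g, -0.82 for Plg, -0.74 for C8b, -0.70 for Serpinc1 and -0.68 for Fgb, each below 0 in 5 of 5 groups. Other genes were higher in these libraries in 5 of 5 groups, with 0.34 for Hc, 0.29 for Serpinf2 and 0.26 for C4b. The values were -0.27 for C9 and -0.17 for F11. These differences are given as a description, without a test, since the libraries were picked from the same data.

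Among 12 transcription factor genes known for control of liver secretory genes, 7 fell at 6.0 mg/kg-day and none rose, with a median of -0.57. Over all genes 11.2% were lower and 11.2% higher. Stat3, which carries the acute phase signal, fell by 0.73 (adjusted p = 0.000368), and Foxa3 fell by 1.44 (adjusted p = 0.00117). Onecut1 fell by 0.97 (adjusted p = 0.0117) and Nr2f2 fell by 0.55 (adjusted p = 0.0175). Hnf4a and Cebpa also fell, and these are named outside the rule, with changes of -0.58 and -0.67. Of the 12 changes 10 were below 0 and 2 above. Cebpb, of the same family as Cebpa, did not fall, at 18.9 to 24.0 CPM in controls and 22.0 to 34.5 CPM at 6.0 mg/kg-day. Foxa1 did not fall either, at 8.49 to 10.45 CPM and 7.91 to 12.17 CPM. The part of any of these factors in the changes above was not tested. RefSeq promoters were found for 33 of the 41 genes, 35 promoters in all. C/EBP motifs were in 25.7% of these against 9.56% of all 32851 promoters, and STAT motifs in 17.1% against 7.02%. FOXA motifs were in 5.71% (F11 and Klkb1) against 3.17%, and HNF4 motifs in 2.86% against 3.58%. Of the 9 promoters with a C/EBP motif, 8 belong to genes that fell at 6.0 mg/kg-day, out of 16 such promoters, and 1 to the other 19. No such share was computed for promoters of all genes that were lower at this dose. Masp1, C4b, Cfb, Cfi and Kng1 fell but had no promoter to search, so the split leaves them out. A match is a string of letters and not a shown binding site, and these shares are descriptions without a test.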

How the data were processed

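Liver RNA of 20 mice was sequenced on an Illumina NextSeq 500, with each library run over 4 lanes that the deposited table gives as 1 column. The table holds expected counts per gene as deposited by the authors, a unit read from the values (58% whole, column totals that differ), and the submitters' processing notes name Partek and GRCm38.p5. The title speaks of targeted sequencing. No source used here gives the aligner, the annotation or the use of strand.

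Expected counts were rounded to whole numbers. edgeR 4.0.16 in R 4.3.3 dropped genes of low count with filterByExpr (6906 left out), scaled with TMM factors and fitted all 20 libraries with a mean per dose group (15 residual degrees of freedom). Its quasi-likelihood test gave p-values adjusted by the Benjamini-Hochberg method over 15197 genes, with 0.05 as the threshold, and the SE is the change divided by the square root of F. A slope on the rank of the dose group gave the trend. Total counts of 13086755 to 21466978 leave counting error small at these levels, so that the spread between mice limits the precision. Log-scale means used log2(CPM + 0.5).

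The members and gene lists were chosen with earlier results of these data known. Values by mouse are given for the 2 smallest and the largest adjusted p at 6.0 mg/kg-day in each of 9 roles, for any gene passing at a lower dose and for any rise, and for the 4 smallest adjusted p of each other list a mean or change is given. Other members have a change and p to account for all 41, and Fgb and C3 were given more values after they were seen. Some genes of the other lists enter the counts but are not reported here by name. Neighbour ratios were tested with two-sided exact permutation tests (SciPy 1.17.1). Gene positions come from GENCODE M21 (GRCm38), which holds 20992 of the symbols (95.0%), and promoters from RefSeq (GRCm38.p6). The fits were tested on simulated data. There the comparison of 6.0 mg/kg-day with control recovered 65 of 100 2-fold changes and 17 of 100 smaller ones. It called 6 unchanged genes. A gene that did not pass may therefore still have changed. Alternatives were RLE factors, no filter, DESeq2 1.42.0, fits of only the groups compared, a slope on log dose, and each mouse left out. Added after seeing the data were a term for libraries 3, 11, 15, 19 and 23, the fit without them, and library totals alone.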

Additional observations from a re-analysis of the deposited data

Results flagged for a closer look

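Of 130 groups of 4 mice checked over 26 genes, 11 held a mouse whose gap to its nearest neighbour was past the 95% limit of Dixon's test for 4 values, and chance alone would pick about 1 group in 20. In 6 of the 11 the mouse was library 11, 15 or 19, which stood apart on the first within-group component computed over all genes tested. These were Masp2 at 100.1 CPM and Cfb at 650.7 CPM, each lowest at 0.3 mg/kg-day in library 15, Proz at 286.5 CPM, highest in the same library, and Serpind1, lowest at 419.4 CPM in library 11 (0.03 mg/kg-day), 458.6 CPM in library 15 (0.3 mg/kg-day) and 480.7 CPM in library 19 (3.0 mg/kg-day). In the other libraries, Masp1 was highest at 93.14 CPM in library 20 and F13b lowest at 261.5 CPM in library 18, both at 3.0 mg/kg-day. Kng1 was highest at 2367 CPM in control library 4. At 6.0 mg/kg-day C4bp was highest at 940.0 CPM in library 21 and Proz lowest at 168.6 CPM in library 22.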

How the results depend on the processing

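At 6.0 mg/kg-day 21 to 23 genes passed with RLE factors, without the filter, by DESeq2 or with library totals alone, 15 to 24 with 1 mouse left out, 30 in the fit adjusted for the 5 outlying libraries and 28 when these were left out, and 13 with only the groups compared. Of the last loss, C1ra (adjusted p = 0.0772) and Vtn (0.0558) passed in every fit with a mouse left out, and the cause was not tested. The median change at 6.0 mg/kg-day stayed between -0.56 and -0.45 in complement and between -0.64 and -0.50 in coagulation over all alternatives. At 0.3 mg/kg-day the count was 1, Pros1, by DESeq2, with the adjustment, without the 5 libraries and with library totals alone. At 3.0 mg/kg-day it was 7 with the adjustment, 2 without the 5 libraries and 1 to 2 with a mouse left out. For 6.0 against 3.0 mg/kg-day it was 18 with the adjustment, 18 without those libraries and 0 with only both groups, against 3 to 6 with a mouse left out. The trend gave 16 to 26 genes with a mouse left out, 29 with the adjustment and 28 without the 5 libraries. Masp1 did not pass without the filter (adjusted p = 0.0520) nor Proz with library totals alone (0.0531). No gene that passed changed sign in these fits. No paired analysis was possible because each library has a number of its own and no number is shared between groups. Whether fewer hepatocytes, less RNA per cell or the vehicle played a part cannot be read from bulk counts.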
